A study of Mus musculus with 10 samples.

Results

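The genes described here carry out antigen presentation by class II molecules of the major histocompatibility complex (MHC), which in the mouse is called H2. They are the class II chains H2-Aa, H2-Ab1 and H2-Eb1, the invariant chain Cd74, the peptide editors H2-DMa and H2-DMb1, and the regulator Ciita. All probe sets of the array whose annotated gene symbol was one of these 7 were taken, which gave 12 of 22690 probe sets. Of these, 10 carried 1 symbol and covered 6 of the genes. The other 2 were annotated to both H2-DMb1 and its neighbour H2-DMb2, so H2-DMb1 had no probe set of its own and these signals are given as H2-DMb1 or H2-DMb2. The genes were chosen because several of them were known to be lower in trained than in untrained mice, so that difference is given below as a description and without a test.

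Right ventricles of 10 mice (strain 129SV) were profiled on 1 Affymetrix array per mouse, in a study that asked how the hearts of plakoglobin (+/-) mice respond to training. Plakoglobin is a protein of the junctions between heart muscle cells, and the sign (+/-) marks mice with 1 intact copy of its gene. The 4 trained wildtype and 4 trained plakoglobin (+/-) mice were 6 months old, with 2 males and 2 females in each group, and swam in water of 35 °C in sessions lengthened from 5 to 90 min, 6 times per week. The untrained wildtype group and the untrained plakoglobin (+/-) group held 1 female mouse of 10 months each, so training and age cannot be told apart and the untrained groups have no replicate. The numbers in the sample titles of the untrained mice also lie apart from those of the trained mice. What these numbers stand for is not given in the labels, and anything tied to them cannot be told apart from training either. The series states littermate pairs, but which mice shared a litter or were handled together is not given for single mice. No pairing was used, and p values rest on the spread between these mice.

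Class II molecules display fragments of engulfed proteins to CD4 T cells. An alpha and a beta chain assemble around Cd74, which blocks the groove and guides the complex to the endosome, where the protease cathepsin S (Ctss) trims Cd74 and the DM heterodimer exchanges the last fragment for a peptide. The genes are transcribed mainly in macrophages, dendritic cells and B cells, and interferon gamma can induce them in other cells. The coactivator Ciita controls them through a set of promoter boxes, X, X2 and Y, that bind the RFX, CREB and NF-Y factors.

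Those boxes are shown here as background. Whether they bear on the difference between trained and untrained mice was not tested. RefSeq promoter windows, from 250 bases before to 50 bases after the start of a gene (build GRCm38.p6, from C57BL/6J and not 129SV mice), were matched for 4 of the 7 genes; H2-Ab1, Cd74 and Ciita were not matched. The 150 bases before the start are printed 5′ to 3′ on the gene's strand, and capitals mark matches to the Y box core TGATTGG, the X box core AACNGATG and the X2 box TGACGTCA, searched on both strands. The stretches lie at chr17:34287824-34287973 (minus strand) for H2-Aa, and on the plus strand at chr17:34305717-34305866 for H2-Eb1, chr17:34153041-34153190 for H2-DMb1 and chr17:34145099-34145248 for H2-DMb2.
H2-Aa: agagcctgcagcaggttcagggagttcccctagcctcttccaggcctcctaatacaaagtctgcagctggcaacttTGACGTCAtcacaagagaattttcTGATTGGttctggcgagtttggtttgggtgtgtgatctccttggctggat
H2-Eb1: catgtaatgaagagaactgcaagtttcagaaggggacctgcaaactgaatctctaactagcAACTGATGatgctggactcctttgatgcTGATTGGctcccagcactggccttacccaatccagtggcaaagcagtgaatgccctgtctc
H2-DMb1: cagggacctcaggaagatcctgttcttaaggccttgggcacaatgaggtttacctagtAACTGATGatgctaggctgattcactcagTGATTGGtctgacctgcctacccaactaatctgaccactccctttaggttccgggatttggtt
H2-DMb2: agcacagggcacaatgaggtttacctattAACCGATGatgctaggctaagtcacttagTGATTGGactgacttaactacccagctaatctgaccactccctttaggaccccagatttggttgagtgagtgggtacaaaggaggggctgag

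The Y box core began at position -50 in H2-Aa, and those of H2-Eb1 and H2-DMb1 began at positions -61 and -63, counted from the start of the gene. It was found in 7.82% of all 32851 promoter windows, the X box core in 2.32% and the X2 box in 1.79%. In H2-Eb1 20 bases separated the X box core from the Y box core, and in H2-DMb1 and H2-DMb2 21 bases did. That arrangement, whose spacing was read from these promoters, occurred in 5 windows of 32851, those of H2-Eb1, H2-DMb1, H2-DMb2, H2-Eb2 and BC051142, all on chromosome 17. H2-Aa held the X2 box and the Y box core but no match to the X box core as written. Neither of the RefSeq windows of H2-DMa held any of the 3 motifs. The windows of H2-Oa and H2-Ob, further class II chains, held the Y box core alone. A match describes letters and does not show that a factor was bound.

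**Figure D1:**
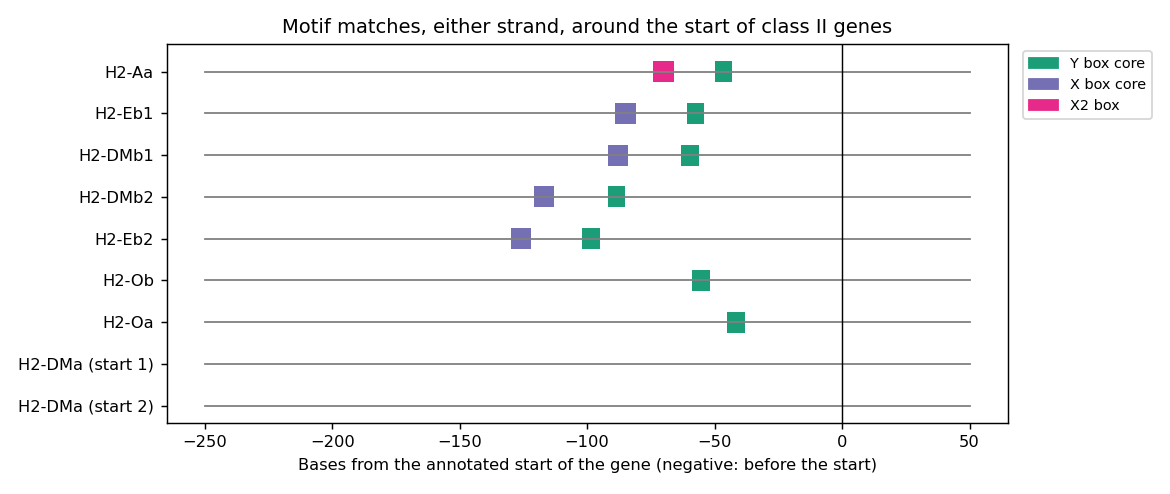
Positions of the X box core, X2 box and Y box core on either strand, in bases from the annotated start of each gene; H2-DMa has 2 annotated starts. H2-Eb1, H2-DMb1, H2-DMb2 and H2-Eb2 carry the X and Y cores at a spacing of 20 or 21 bases, and H2-DMa carries no match in these windows.

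The genes that mark the labelled tissue were bright: all 9 heart muscle markers were bright enough to be tested, and their summed signal was 1632437 to 2098476 in trained and 2019251 and 2303579 in the untrained wildtype and plakoglobin (+/-) mice. Every array had been scaled by the authors to a common trimmed mean, and signals are their linear intensities. Values under 104, the 10th percentile of all values, were raised to that floor before log2 was taken, and probe sets with a mean log2 signal under the 40th percentile were left out of the fits. Of the 12 class II probe sets 8 passed this filter. For GAPDH, the signal of the 3′ control divided by that of the 5′ control, a measure of RNA integrity or labelling, exceeded 2 on 3 arrays. It was 17.8 for trained wildtype replicate 2, 2.98 for the first trained plakoglobin (+/-) replicate and 2.50 for the first trained wildtype replicate, and between 0.849 and 1.02 on the others.

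Every probe set of H2-Aa, H2-Ab1, H2-Eb1 and Cd74 read lower in all 8 trained mice than in both untrained mice. The ratios of geometric means were between 3.52 and 7.14. H2-DMa, part of the peptide editor, was lower by 2.02. The 2 probe sets of Ciita, which switches these genes on, gave differences of opposite sign. In bulk tissue, fewer cells of a type and less RNA per cell cannot be told apart.

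H2-Aa encodes the alpha chain of the class II molecule I-A. Its brighter probe set (1435290_x_at) read 24233.9 in the untrained wildtype and 29685.7 in the untrained plakoglobin (+/-) mouse. In trained wildtype replicates 1 to 4 it read 5933.7, 3148.9, 7024.3 and 3198.4, and in trained plakoglobin (+/-) replicates 1 to 4 it read 7209.9, 3219.3, 3962.9 and 3164.9. The lowest untrained mouse stood 3.36 times above the highest trained mouse, and within the trained mice both wildtype males and 1 plakoglobin (+/-) male, at 5933.7 to 7209.9, lay apart from the other 5 mice, at 3148.9 to 3962.9. The log2 difference between trained and untrained mice, fitted with genotype and sex, was -3.00 (SE 0.31). The other probe set (1452431_s_at) read 5793.7 and 7141.4 in the untrained wildtype and plakoglobin (+/-) mice and 621.6 to 1939.7, with a median of 1348, in the trained mice, a log2 difference of -2.57 (SE 0.42). Both probe sets separated trained from untrained mice, but across the 8 trained mice their log2 signals had a correlation of only 0.24.

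H2-Ab1, the beta chain that pairs with H2-Aa, was read by 3 probe sets. The brightest (1450648_s_at) read 5852.2 in the untrained wildtype and 7132.4 in the untrained plakoglobin (+/-) mouse. Trained wildtype replicates 1 to 4 read 1984.2, 1491.7, 2025.2 and 1720.2, and trained plakoglobin (+/-) replicates 1 to 4 read 2763.8, 1597.2, 1643.7 and 1703.2. Trained plakoglobin (+/-) replicate 1 stood above the other trained mice, yet the lowest untrained mouse was still 2.12 times higher. The log2 difference was -1.98 (SE 0.25). The second probe set (1451721_a_at) read 7494.4 and 7306.4 in the untrained wildtype and plakoglobin (+/-) mice against 948.1 to 2032.2 in trained mice (-2.43, SE 0.33). The third (1425477_x_at) read 2594.8 and 2591.8 against 82.5 to 645.6; it was too dim to pass the filter and gave -2.52 (SE 0.78) in the fit without it. The 3 probe sets showed the same order of trained and untrained mice, while over the 8 trained mice the first and the third had a correlation of -0.79 and the first and the second of 0.42.

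H2-Eb1 is the beta chain of the second class II molecule, I-E, and was read by 1 probe set (1417025_at). It read 12008.4 in the untrained wildtype and 13307.7 in the untrained plakoglobin (+/-) mouse. In trained wildtype replicates 1 to 4 it read 4485.0, 1389.7, 4447.0 and 2435.8, and in trained plakoglobin (+/-) replicates 1 to 4 it read 2884.8, 2981.3, 3006.3 and 2416.8. The wildtype mice spread over a 3.23-fold range that enclosed all plakoglobin (+/-) mice, and trained wildtype replicate 2, the array of the highest GAPDH ratio, was the lowest. The log2 difference was -2.51 (SE 0.32). H2-Ea, the alpha chain of I-E, is not transcribed in some strains, among them C57BL/6J. Its 3 probe sets read at most 495.1 in the untrained mice and at most 864.6 in the trained mice, and none of the 3 passed the filter.

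Cd74, the invariant chain (1425519_a_at), read 14000.2 in the untrained wildtype and 13025.6 in the untrained plakoglobin (+/-) mouse. Trained wildtype replicates 1 to 4 read 3304.4, 2612.8, 5424.1 and 3003.4, and trained plakoglobin (+/-) replicates 1 to 4 read 3010.4, 4457.5, 3794.4 and 3157.4. The groups did not overlap, with a gap of 2.40 between the lowest untrained and the highest trained mouse, and the log2 difference was -2.12 (SE 0.27).

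H2-DMa, the alpha chain of the peptide editor (1422527_at), read 1978.7 in the untrained wildtype and 1617.7 in the untrained plakoglobin (+/-) mouse. The trained wildtype mice read 781.6, 760.6, 1122.6 and 1152.1, and the trained plakoglobin (+/-) mice 1016.1, 943.1, 948.1 and 537.6, in replicate order. All 8 lay below both untrained mice, with a gap of 1.40, narrower than that of the class II chains, and the log2 difference was -1.13 (SE 0.37). The probe sets of H2-DMb1 or H2-DMb2, the beta chains, were dim and did not pass the filter. The brighter (1449580_s_at) read 1515.7 and 1306.7 in the untrained wildtype and plakoglobin (+/-) mice and 69.0 to 1047.6, with a median of 371.8, in trained mice. The other (1418638_at) read 335.5 and 236.5 against 41.0 to 306.0, with 5 of 10 values at the floor, and its groups overlapped. A probe set of H2-DMb2 alone read 545.1 and 540.1 in the untrained mice, inside the 366.0 to 795.1 of the trained mice.

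Ciita, the coactivator, was read by 2 probe sets that did not share an order of mice. The brighter (1421210_at) read 921.6 in the untrained wildtype and 289.0 in the untrained plakoglobin (+/-) mouse, and in trained mice 548.1 to 1516.2 with a median of 1069. Only the untrained plakoglobin (+/-) mouse lay outside the trained range. The log2 difference between trained and untrained mice was 0.87 (SE 0.52), and without that 1 mouse it was -0.02. The dimmer probe set (1421211_a_at) read 114.0 in the untrained wildtype and 567.1 in the untrained plakoglobin (+/-) mouse, the opposite order, and 40.5 to 729.1 in trained mice with a median of 134.3. It did not pass the filter and gave -0.99 (SE 0.84) in the fit without it. Across the 8 trained mice the log2 signals of the 2 probe sets had a correlation of -0.04. No direction of Ciita is therefore given.

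**Figure D2:**
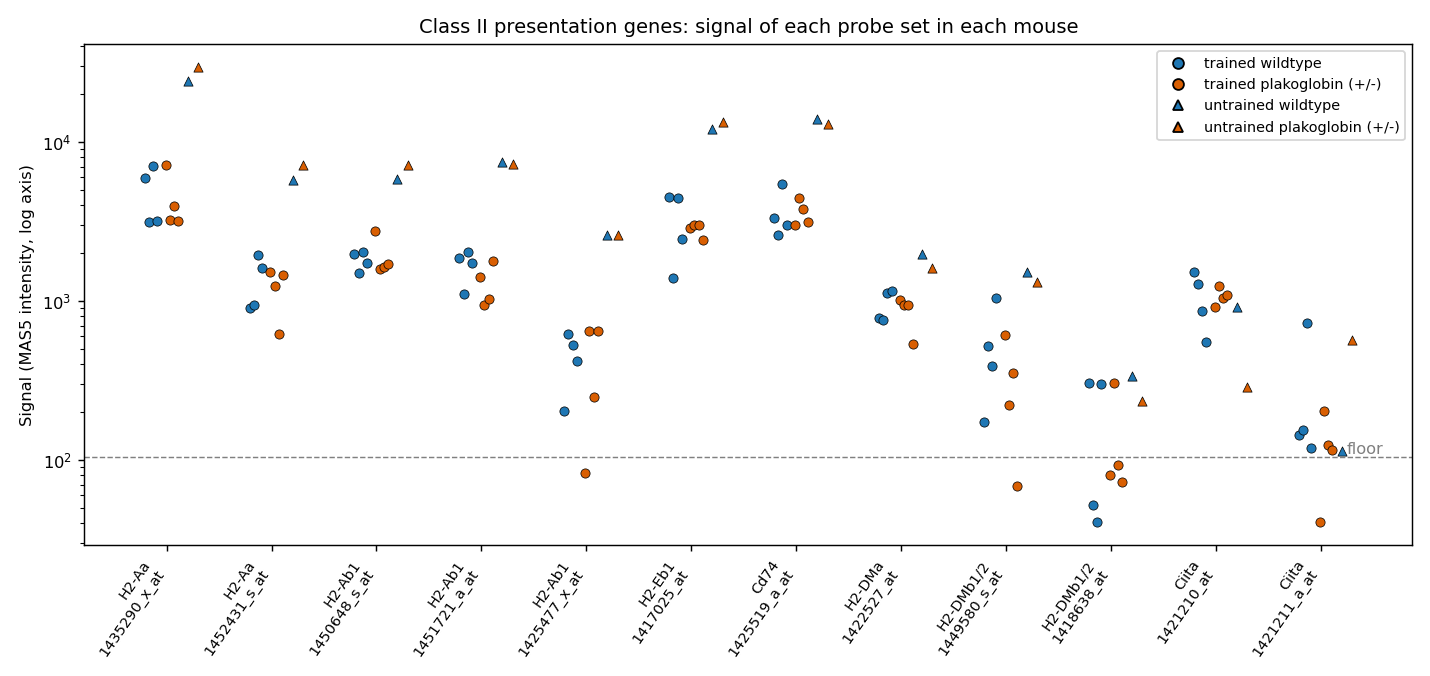
Signal of the 12 probe sets in each of the 10 mice on a log axis, with circles for trained and triangles for untrained mice, blue for wildtype and orange for plakoglobin (+/-); the dashed line is the floor of 104. For H2-Aa, H2-Ab1, H2-Eb1, Cd74 and H2-DMa both triangles lie above all 8 circles, and for Ciita they do not.

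Of the 8 tested probe sets, 7 had all 8 trained mice below both untrained mice, an order seen in 4.61% of the 13576 probe sets tested. The members were chosen on this contrast, so nothing is read from that count. Their median log2 difference was -2.27, beside a median of 0.00 over all probe sets tested, of which the 5th and 95th percentiles were -0.79 and 0.75. Counted from the lowest difference, H2-Aa ranked 9th and 17th of 13576 on its 2 probe sets, H2-Eb1 19th, H2-Ab1 23rd and 47th, Cd74 37th and H2-DMa 287th. In limma with Benjamini-Hochberg adjustment 0.626% of all probe sets passed for training, 0.354% with lower signals in trained mice. When the 3 arrays with a GAPDH ratio above 2 were left out, the log2 differences were -2.94 and -2.44 for H2-Aa, -1.93 and -2.25 for H2-Ab1, -2.27 for H2-Eb1, -2.03 for Cd74 and -1.02 for H2-DMa. Because both untrained mice were female, the fitted difference is one between females, and the fit on females alone gave the same -3.00 and -2.57 for H2-Aa, -2.51 for H2-Eb1 and -2.12 for Cd74. With each mouse left out in turn the values of H2-Aa, H2-Ab1, H2-Eb1 and Cd74 stayed between -3.21 and -1.87. Leaving out a male could not change them, because all males were trained and the fit has a sex term. Only the fits that left out a female bear on how stable the values are.

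Genotype was compared over the 8 trained mice, a contrast that played no part in choosing the genes. None of the 8 tested class II probe sets passed (limma, lowest adjusted p = 1.0), and 0 had an unadjusted p under 0.05; over all probe sets 0.00% passed and 2.01% had an unadjusted p under 0.05. Means were 4826 ± 1960 in trained wildtype and 4389 ± 1915 in trained plakoglobin (+/-) mice for H2-Aa (SD, n = 4 each; 1435290_x_at). For H2-Eb1 they were 3189 ± 1535 and 2822 ± 275.4 (SD, n = 4 each), and the plakoglobin (+/-) mice lay inside the wildtype range. For Cd74 they were 3586 ± 1258 and 3605 ± 662.5 (SD, n = 4 each).

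The fitted difference, plakoglobin (+/-) minus wildtype, was -0.13 on the log2 scale for H2-Aa, with a 95% interval from -0.73 to 0.46. It was -0.03 for H2-Eb1 (-0.66 to 0.60), 0.05 for Cd74 (-0.48 to 0.58) and -0.16 for H2-DMa (-0.91 to 0.58). H2-Ab1 had 0.07 (-0.43 to 0.56) and -0.38 (-1.04 to 0.28) on its 2 tested probe sets. When the 3 arrays with a GAPDH ratio above 2 were left out, 0 of 8 passed and the differences were -0.40 and -0.71 for H2-Aa, -0.17 and -0.67 for H2-Ab1, -0.16 for H2-Eb1, -0.50 for H2-DMa and 0.77 for Ciita, with Cd74 at 0.00. That fit lost trained wildtype replicates 1 and 2 and trained plakoglobin (+/-) replicate 1, so it held fewer wildtype than plakoglobin (+/-) mice. Its larger differences rest on these few mice. The direction turned with single mice left out for 7 of the 8 probe sets.

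Whether the genotypes differed in how far trained mice stood from untrained mice was tested with a genotype by training term, in which each untrained group is 1 mouse assumed to vary like the trained mice. None of the 8 class II probe sets passed (limma, lowest adjusted p = 1.0) and 0 had an unadjusted p under 0.05, whereas over all probe sets 0.00% passed and 3.20% had an unadjusted p under 0.05. The term was -0.42 (SE 0.59) for H2-Aa, -0.18 (SE 0.63) for H2-Eb1 and 0.15 (SE 0.52) for Cd74. When the 3 arrays with a GAPDH ratio above 2 were left out it was -0.69 for H2-Aa (-1.01 on the other probe set), -0.31 for H2-Eb1, 0.10 for Cd74 and 2.45 for Ciita. The same fit made no calls on simulated differences either, so a count of 0 says little here. The brighter probe set of Ciita had the largest of the 8 terms, 1.79 (SE 0.82; unadjusted p = 0.0550), which rests on the low signal of 289.0 in the untrained plakoglobin (+/-) mouse. The dimmer one gave -2.98 (SE 1.21) in the fit without a filter, the opposite sign.

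**Figure D3:**
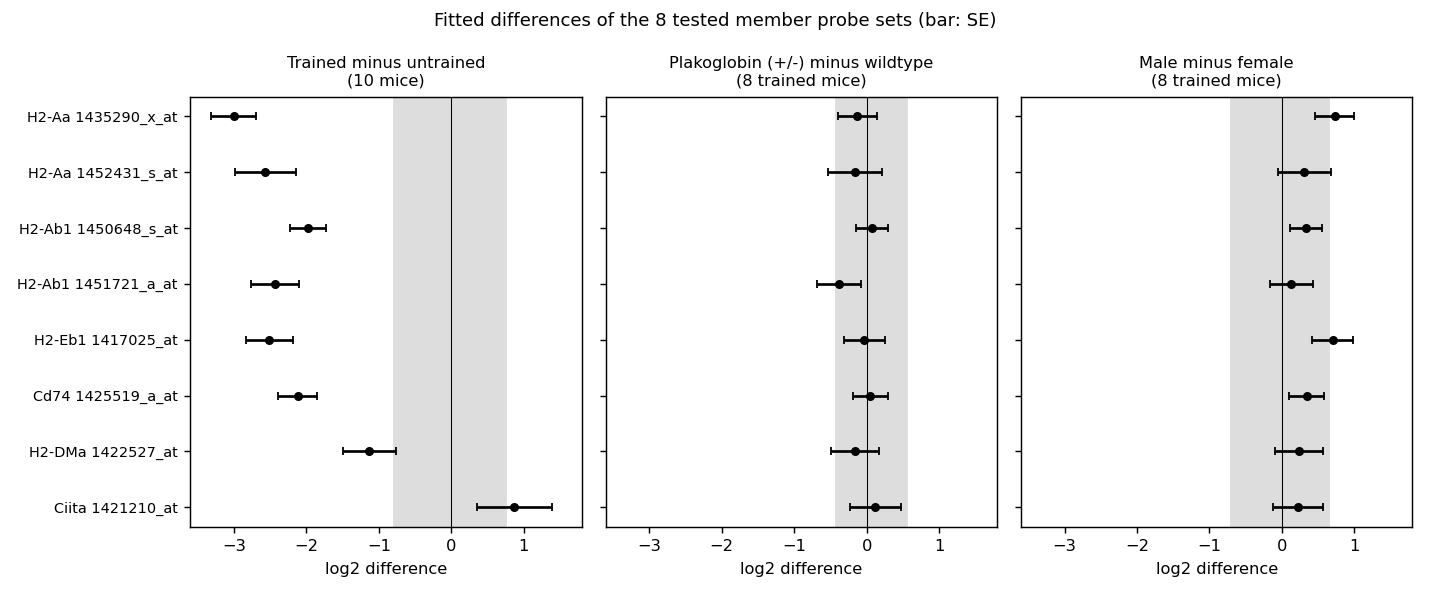
Fitted log2 differences with SE of the 8 tested probe sets for training (10 mice), genotype and sex (8 trained mice each); the grey band spans the 5th to 95th percentile of all 13576 probe sets. For training the class II chains, Cd74 and H2-DMa (-1.13) lie below the band, and Ciita (0.87) lies above its upper edge of 0.75. For genotype all lie inside the band, and for sex H2-Aa (0.73) and H2-Eb1 (0.70) lie just beyond its upper edge of 0.65.

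Sex was compared in the same fit, male minus female, over 4 males and 4 females. None of the 8 probe sets passed (limma, lowest adjusted p = 0.509), where 0.0516% of all probe sets did. All 8 were higher in males, by a median of 0.32 beside 0.01 over all probe sets, and 2 had an unadjusted p under 0.05, where 8.82% of all probe sets did. These were H2-Aa (1435290_x_at) at 0.73 (SE 0.27; adjusted p = 0.509, limma) and H2-Eb1 at 0.70 (SE 0.28; adjusted p = 0.527, limma). H2-Eb1 averaged 3700 ± 886.1 in trained males and 2312 ± 673.1 in trained females (SD, n = 4 each), with 1 female at 3006.3 above the 2 lowest males, at 2884.8 and 2981.3. H2-Aa averaged 5847 ± 1840 in males and 3369 ± 396.6 in females (SD, n = 4 each), and 1 male at 3219.3 lay among the females. The macrophage markers moved with this order: 0 of 11 tested were lower in males, their median was 0.62, and 0 passed. In the fit that left out the 3 arrays whose GAPDH ratio exceeded 2, of which 2 were from males, H2-Aa had 0.41 and H2-Eb1 0.46, H2-Ab1 0.06 and -0.20, and Cd74 0.57.

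The spread among the 8 trained mice was then used to ask whether the genes vary together, over 21 pairs of the brightest probe set of each gene. H2-Aa and H2-Ab1, the partners of I-A, had the closest relation, with a Pearson r of 0.86 (two-sided exact permutation p = 0.00317, adjusted p = 0.0667 over 21 pairs) and a Spearman rho of 0.81 (exact permutation p = 0.0218). Without the 2 mice farthest from the median of H2-Aa, r was 0.81. Over the same mice, however, the 2 probe sets of H2-Aa had an r of only 0.24. The brightest probe set of H2-Ab1 had 0.42 and -0.79 with the others of its gene. The relation is therefore one between these probe sets, and it was not tried on the dimmer ones. H2-Aa with H2-Eb1 had an r of 0.69 (exact permutation p = 0.0559, adjusted p = 0.243) and H2-Eb1 with Cd74 0.69 (exact permutation p = 0.0578, adjusted p = 0.243). H2-Ab1 with Cd74 had an r of 0.04 (exact permutation p = 0.923, adjusted p = 0.971). None of the 21 pairs passed after adjustment, and 2 had an unadjusted p under 0.05, the second being H2-DMa with H2-DMb1 or H2-DMb2 (r = 0.76, exact permutation p = 0.0250, adjusted p = 0.243), the partners of the DM editor. The probe set of H2-DMb1 or H2-DMb2 used here (1449580_s_at) did not pass the filter and had 1 value at the floor. Its r with the other probe set of these genes was 0.00. Since several of the genes read higher in males, each sex was also centred on its mean and mice were permuted within sex. H2-Aa with H2-Ab1 then had an r of 0.76 (exact permutation p = 0.234, adjusted p = 0.788), H2-Aa with H2-Eb1 0.37 and H2-Eb1 with Cd74 0.53, while H2-DMa with H2-DMb1 or H2-DMb2 had 0.87 (exact permutation p = 0.0278, adjusted p = 0.583), the 1 pair of 21 with an unadjusted p under 0.05. In the analysis without centring, with trained plakoglobin (+/-) replicate 4 left out 2 pairs passed, and with replicate 3 of that group left out 1 did.

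The brighter Ciita probe set, set against the genes Ciita is known to control, had an r of 0.03 with H2-Aa, -0.17 with H2-Ab1, 0.05 with H2-Eb1 and -0.02 with Cd74. With H2-DMa r was -0.59 (exact permutation p = 0.131, adjusted p = 0.460) and rho -0.83 (exact permutation p = 0.0154, adjusted p = 0.229), and with H2-DMb1 or H2-DMb2 r was -0.69 (exact permutation p = 0.0551, adjusted p = 0.243). Over the same mice the 2 probe sets of Ciita had an r of -0.04. These relations therefore belong to the brighter probe set, and the dimmer one was not tried. All 6 pairs among H2-Aa, H2-Ab1, H2-Eb1 and Cd74 had a positive r, with a median of 0.58 and a range from 0.04 to 0.86. With each sex centred, H2-Aa with Cd74 had -0.08 and H2-Ab1 with Cd74 -0.43. Each sex holds 4 trained mice, too few for a correlation of its own.

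The summed signals of 4 marker lists were set against H2-Aa, H2-Ab1, H2-Eb1 and Cd74 over the trained mice, and none of the 16 relations passed after adjustment. The sum of the 14 macrophage marker signals had an r of 0.85 with H2-Eb1 (exact permutation p = 0.00335, adjusted p = 0.0536 over 16 relations), 0.80 with H2-Aa (exact permutation p = 0.0301, adjusted p = 0.142), 0.67 with H2-Ab1 and 0.50 with Cd74. The Spearman rho was 0.81 for H2-Eb1 (exact permutation p = 0.0218) and 0.88 for H2-Aa (exact permutation p = 0.00724). Without the 2 mice farthest from its median r was 0.70 for H2-Eb1 and 0.78 for H2-Aa. The sum of the 8 pan-leukocyte marker signals had an r of 0.81 with Cd74 (exact permutation p = 0.0155, adjusted p = 0.124). That sum had an r of 0.69 with H2-Aa, which was 0.35 without the 2 mice farthest from the median. Heart muscle markers had a negative r with all 4 genes, -0.56 for H2-Aa, -0.50 for H2-Ab1, -0.48 for H2-Eb1 and -0.22 for Cd74. With each sex centred, these 4 values were -0.18, -0.16, -0.05 and 0.19 in the same order. Endothelial markers had -0.65 with H2-Aa, -0.58 with H2-Ab1, -0.15 with H2-Eb1 and 0.36 with Cd74. Their values with each sex centred were -0.73, -0.57, 0.01 and 0.58. With each sex centred, the macrophage sum had an r of 0.81 with H2-Eb1 (exact permutation p = 0.0382, adjusted p = 0.514), 0.51 with H2-Aa, 0.34 with H2-Ab1 and 0.01 with Cd74. These sums were compared after the signals had been seen.

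**Figure D4:**
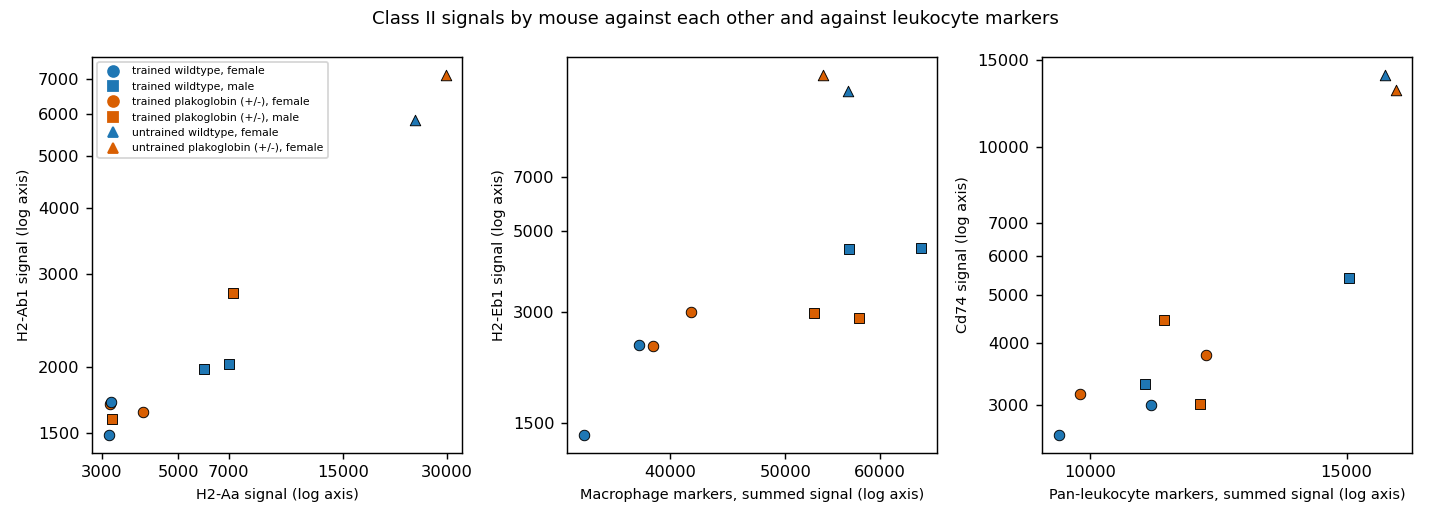
Signals of single mice on log axes: H2-Ab1 against H2-Aa, H2-Eb1 against the summed macrophage markers, and Cd74 against the summed pan-leukocyte markers; squares are trained males, circles trained females and triangles untrained females. The untrained mice lie far above the trained mice on each vertical axis, while their macrophage sums of 53733 and 56460 fall inside the trained range of 33872 to 64915 and above the 33872 to 41687 of trained females.

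Markers of other cell types were compared between trained and untrained mice in the same fit. Of 51 marker genes tested in 9 lists, 0 passed for training (limma), 10 had an unadjusted p under 0.05 and 37 were lower; 8.68% of all probe sets had an unadjusted p under 0.05. The macrophage list was lower in 9 of 11 tested genes by a median of -0.52, led by C1qa (-1.25, SE 0.60), a complement subunit, Adgre1 (-0.90, SE 0.23), the F4/80 antigen, and C1qc (-0.86, SE 0.27). Cd163, a scavenger receptor of resident macrophages, had the opposite sign at 0.74 (SE 0.37), with all 8 trained mice above both untrained mice, and Cd68 had 0.05. The summed signal of the macrophage list was 56460 and 53733 in the untrained wildtype and plakoglobin (+/-) mice. The trained mice ranged from 33872 to 64915. The 4 trained females, the sex of the untrained mice, had sums of 33872 to 41687, below both untrained females. The pan-leukocyte list was lower in 5 of 6 tested genes by a median of -0.67, led by Ptprc (-1.30, SE 0.48), which encodes CD45, Cd53 (-1.14, SE 0.48) and Cd52 (-0.73, SE 0.75). Its sum was 15948 and 16209 in the untrained mice and 9512 to 15061 in the trained mice. How much of the class II difference these cells account for was not tested.

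The lists of other cell types that carry class II molecules had medians nearer 0. Of the dendritic cell markers 3 of 6 tested were lower, with a median of -0.08, and Irf8, a transcription factor of these cells, had -0.58 (SE 0.29), Xcr1 0.57 and Cd83 0.54. Flt3 and Cd209a had -0.49 and -0.32, whereas Itgax, Zbtb46 and Batf3 were too dim and Ccr7 was at the floor in 7 of 10 mice. The dendritic sum was 8298 and 8512 in the untrained mice and 5419 to 8797 in the trained mice. Of the B cell markers 3 of 5 tested were lower, with a median of -0.11, and Ms4a1, which encodes CD20, had 0.52, Blk 0.37 and Cd79a -0.21; their sum was 6592 and 6654 in untrained and 5516 to 8745 in trained mice. Of the T and natural killer cell markers only Ncr1 was bright enough to be tested (0.00), and their sum was 2796 and 2545 against 2414 to 3821. The neutrophil list of 3 tested genes held Ltf at 1.68, S100a9 at -1.08 and Mpo at -0.03, with sums of 4454 and 5225 against 3565 to 5665. Endothelial markers were lower in 6 of 8, by a median of -0.15, with Kdr at -1.03, Eng at -0.46 and Tie1 at -0.33, and sums of 35032 and 39440 against 28407 to 37690. Heart muscle markers had a median of -0.13, with Ryr2 at 0.54, Myl2 at -0.38 and Myl3 at -0.31. Alas2, of red cell precursors, had -0.92 and Sftpc, of lung, -0.78; the atrial markers Myl7 and Sln had medians of 267.0 and 186.8 in trained mice and were too dim to test.

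Among the other genes of the class II pathway 1 of 8 tested passed, beside 0.538% of the 8365 genes tested, and 0.251% that passed as lower. The list was drawn up with earlier results of these data known, so this count is not independent of them. Ctss, the protease that trims Cd74, fell by 1.41 on the log2 scale (SE 0.26, limma adjusted p = 0.0421). All 8 trained mice, at 1576 to 3524, lay below both untrained mice for Ctss, an order seen in 4.61% of the probe sets tested. The call of Ctss is narrow. It was lost without either untrained mouse. The limma adjusted p was 0.0977, 0.0526 and 0.128 without trained wildtype replicates 2, 3 and 4, and 0.107 and 0.0842 without trained plakoglobin (+/-) replicates 3 and 4. It was also lost without a filter (0.0929), in eBayes without a trend (0.0675) and without the sex term (0.251). None of the others passed. Ifi30, a thiol reductase that unfolds antigens in the endosome, had 1.09 (SE 0.32; limma adjusted p = 0.274) with all 8 trained mice above both untrained mice, an order seen in 4.63% of all probe sets. The costimulatory ligand Cd80 had 0.89, the proteases Ctsd and Ctsb -0.73 and -0.25, and H2-Oa, part of the DO inhibitor of the editor, -0.17. The median of the 8 genes was -0.13.

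Of the regulators that act through or on Ciita, 0 of 13 tested passed for training (limma) and 3 had an unadjusted p under 0.05, beside 8.68% of all probe sets, with 8 lower and a median of -0.06. Tgfb1, a cytokine that restrains Ciita, had -1.28 (SE 0.48), Irf1, a factor that interferon gamma induces, -0.51 (SE 0.22), and Ifngr2, a chain of the interferon gamma receptor, -0.47. Rfxank and Creb1, of the complex on the X and X2 boxes, had 0.62 and 0.47. Ifng itself was too dim to be tested. For genotype and for sex 0 genes of either list passed, beside 0.00% and 0.0837% of all genes tested.

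**Figure D5:**
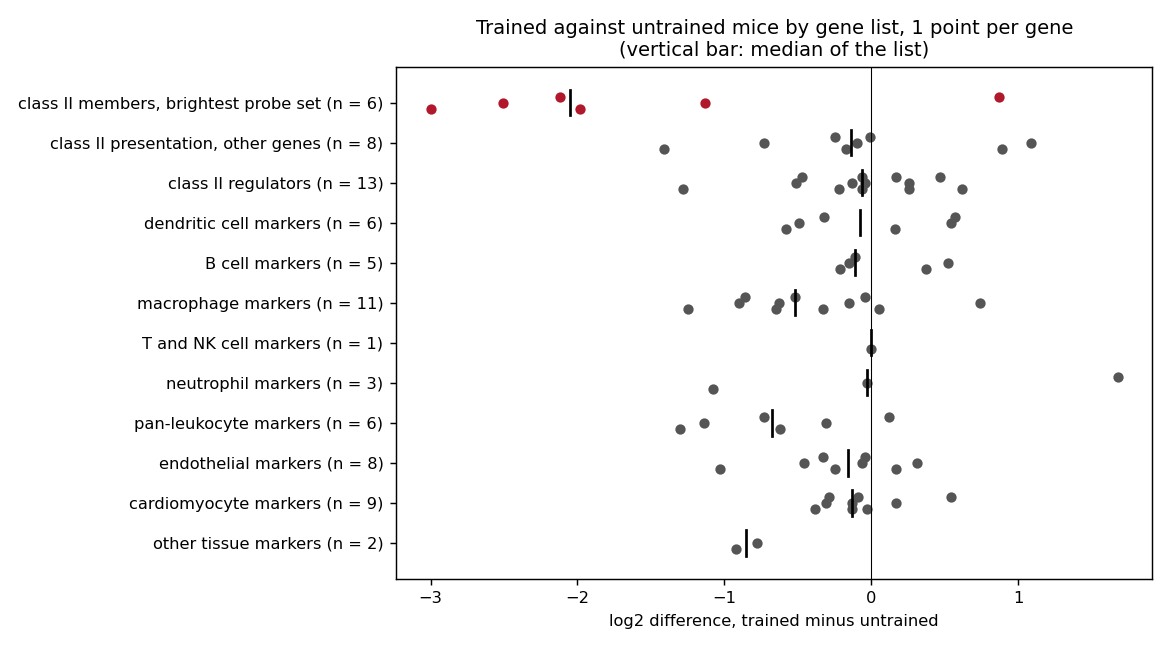
Log2 difference between trained and untrained mice, 1 point per tested gene by list, with vertical bars at list medians; class II genes (red) are shown by their brightest probe set. The class II genes were chosen on this difference; the medians of the macrophage and pan-leukocyte lists are -0.52 and -0.67, and Ctss at -1.41 is the lowest of the other class II genes.

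The genes most like the class II genes were sought with a score per mouse, the mean centred log2 signal of H2-Aa, H2-Ab1, H2-Eb1 and Cd74, against 12449 probe sets of other genes. Over all 10 mice, where the distance between trained and untrained mice sets the order, the closest were H2-D1 (r = 0.978), Zfp386 (0.958), H2-K1 (0.956), Rgs5 (0.955) and Prdx2 (0.954). H2-D1 and H2-K1 encode class I molecules, which present peptides from inside the cell. H2-D1 read 29108.5 and 30354.8 in the untrained wildtype and plakoglobin (+/-) mice and 9250.1 to 13459.9 in the trained mice. Over the 8 trained mice alone the closest were Git1 (r = 0.971), Fastkd2 (0.969), Tmem167 (0.940), Zfp612 (0.928) and Errfi1 (0.928), none of which is among the first 5. These are the 5 highest values of 12449 over 10 mice and over 8 mice and are a description only.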

How the data were processed

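Total RNA was labelled as biotin cRNA and hybridised to 1 Affymetrix array per mouse, per the labels' protocols. The deposited values are linear intensity signals made by the authors with MAS5 5.0, per the submitters' processing notes. The mean after trimming 2% from each end was equal on all arrays, and no detection calls, build or scan dates are given in the sources used here. Probe sets were named from the platform annotation (20393 with 1 symbol, 691 with several, 1606 with none). The members and lists were chosen with earlier results of these data known.

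Signals were floored at the 10th percentile (104) and log2 transformed. Without 64 control probe sets, 13576 at or above the 40th percentile of mean log2 signal were fitted in limma 3.58.1 (R 4.3.3; lmFit, eBayes with trend, Benjamini-Hochberg, threshold 0.05, two-sided): genotype and sex over 8 trained mice, training over 10 mice with genotype and sex, and a genotype by training term. On simulated data the genotype, sex and training fits recovered part of the differences put in, and the genotype by training fit recovered none. For each list gene the brightest probe set that carries its symbol alone was used; 107 of 118 list genes were on the array and 72 were tested. Named are all members, list genes past the threshold, up to 5 more per pathway list and up to 3 per marker list by size of the training difference, and the 5 genes of highest r with the class II score; dim markers and H2-Ea, H2-DMb2, Flt3, Cd209a, Cd163 and Cd68 were named after their values were seen. Correlations used exact permutation of mice, also within sex after centring each sex, an alternative added after seeing the data (Python 3.11.15, NumPy 2.4.6). Promoters are RefSeq sequences of GRCm38.p6. Alternatives were quantile or cyclic loess normalization, no floor (log2 of signal + 1), the floor moved to the 25th percentile, the filter dropped or moved to the 60th percentile, other eBayes settings, no sex term, all 10 mice in 1 fit, females only, each mouse left out, and no arrays with a GAPDH ratio above 2. The number of arrays limits the precision.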

Additional observations from a re-analysis of the deposited data

Results flagged for a closer look

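In 24 groups of 4 trained mice (12 probe sets in 2 genotypes), 4 held a mouse far from the other 3 by Dixon's test at the 5% level, which chance alone would give in about 5% of groups. H2-Ab1 (1450648_s_at) read 2763.8 in trained plakoglobin (+/-) replicate 1, against 1597.2 to 1703.2 in the others of its group. H2-DMa read 537.6 in trained plakoglobin (+/-) replicate 4, against 943.1 to 1016.1. The dimmer probe set of H2-DMb1 or H2-DMb2 read 306.0 in trained plakoglobin (+/-) replicate 2, against 73.0 to 92.5, around the floor. The dimmer probe set of Ciita read 729.1 in trained wildtype replicate 3, against 119.5 to 154.0.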

How the results depend on the processing

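For training, no member named in a fit changed direction under any alternative other than leaving out 1 mouse, and of those with mice left out only Ciita did, which ranged from -0.02 (without the untrained plakoglobin (+/-) mouse) to 1.77. Leaving out a male left these differences unchanged by design. The count of probe sets past the threshold for training (85) was 225 without the arrays of GAPDH ratio above 2 and 10 to 87 with 1 mouse left out (10 without the untrained plakoglobin (+/-) mouse, 34 without the untrained wildtype mouse). The sex count (7) was 13 after quantile normalization, 15 with the floor at the 25th percentile, 2 with no filter, 11 with the filter at the 60th percentile, 1 in eBayes without trend, 17 without the arrays of GAPDH ratio above 2, 15 with all 10 mice in 1 fit, and 1 to 12 with 1 mouse left out. The genotype by training count (0) was 1 after quantile normalization, 66 with no filter, 1 without the arrays of GAPDH ratio above 2, and 0 to 1 with 1 mouse left out. The genotype count was 0 in all settings run. Pairs of members past the threshold (0) were 0 to 2 with 1 mouse left out and 0 with each sex centred. The cause of these shifts was not tested.

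Genotype differences near 0 turned sign. H2-Ab1 (1450648_s_at) was -0.01 after quantile normalization and -0.17 without the arrays of GAPDH ratio above 2, where Cd74 was 0.00; with all 10 mice in 1 fit H2-Eb1 was 0.01 and Ciita -0.24. With 1 mouse left out they ranged from -0.31 to 0.16 and -0.43 to 0.13 for the probe sets of H2-Aa, -0.09 to 0.22 for H2-Ab1, -0.31 to 0.10 for H2-Eb1, -0.06 to 0.24 for Cd74, -0.31 to 0.05 for H2-DMa and -0.17 to 0.33 for Ciita. The sex difference of H2-Ab1 (1451721_a_at) was -0.20 without the arrays of GAPDH ratio above 2 and -0.07 to 0.36 with 1 mouse left out, and that of Ciita -0.07 to 0.42. The genotype by training term of H2-DMa was -0.21 without the arrays of GAPDH ratio above 2 and -0.02 to 0.34 with 1 mouse left out. The pairs could not be recomputed without those arrays, which leaves 5 trained mice. No paired analysis was possible because the litter of each mouse is not given. Dim probe sets near the floor limit H2-DMb1 or H2-DMb2, Ciita and the third probe set of H2-Ab1.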
